A study of Mus musculus with 32 samples.

Results

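The genes described here encode the proteasome of the mouse kidney and the factors that assemble, activate or inhibit it. They were taken by name, as the protein-coding genes whose symbols begin with Psma, Psmb, Psmc, Psmd, Psme, Psmf or Psmg and a number, leaving out Psmb8 and Psmb9. This gave 48 of the 54532 genes counted. Kidney RNA was sequenced from 32 C57BL/6 mice, an inbred laboratory strain, aged 6 to 8 weeks, in 8 groups of 4: males and females at Day 0, and males and females at Day 2, Day 3 and Day 5 after a single injection of 20 mg/kg cisplatin. The study treats the Day 0 mice as healthy, although the labels of the Day 0 females carry the treatment cisplatin and those of the Day 0 males carry none. Each library was the kidney RNA of 1 mouse, without pooling, and the later days are compared with Day 0 of the same sex.

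The proteasome is the protease that degrades proteins tagged with ubiquitin. Its core particle is a barrel of stacked rings, with α subunits (Psma genes) that gate the entry and β subunits (Psmb genes) that line the chamber, and its regulatory particle has a base with ATPases (Psmc genes) that unfold the substrate and a lid that removes the ubiquitin. In many cell types a shortage of proteasome activity is answered by the transcription factor NRF1, the product of Nfe2l1, which raises the transcription of subunit genes together through antioxidant response elements in their promoters. Cisplatin is taken up by the proximal tubule of the kidney, which it injures.

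RefSeq promoters (GRCm38.p6, 250 bases before to 50 bases after the transcript start) were found for 40 of the 48 genes, 43 promoters in all. The windows of 29 bases that follow show, in capitals, the letters searched for, and they were chosen because these genes recur in the results: the catalytic subunits Psmb5 and Psmb6 and the activator gene Psme4 for the core of the antioxidant response element, the ubiquitin receptor gene Psmd4 for the ETS core, and the activator gene Psme1 and the chaperone gene Psmg4 for the core of the interferon response element.
Psmb5: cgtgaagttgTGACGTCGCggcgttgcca
Psmb6: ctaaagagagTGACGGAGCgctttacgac
Psme4: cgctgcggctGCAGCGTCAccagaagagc
Psmd4: tacagctgttCCGGAAGctgctgcgaagg
Psme1: cgagctgtgcTTTCGCTTTCccttcccgc
Psmg4: gcgcgcatctGAAAGTGAAAgagcgttcc
Each window is written in the direction of its gene. They lie on GRCm38 at chr14:54618024-54618052 (minus strand, Psmb5), chr11:70525338-70525366 (plus strand, Psmb6), chr11:30771758-30771786 (plus strand, Psme4), chr3:95042721-95042749 (minus strand, Psmd4), chr14:55578493-55578521 (plus strand, Psme1) and chr13:34162969-34162997 (plus strand, Psmg4). In Psme4 and Psme1 the capitals show the match on the other strand.

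The letters TGACNNNGC, searched on both strands, were present in 14% of the promoters of proteasome genes and in 12.4% of all 32851 promoters of the same length. The ETS letters CCGGAAG were present in 37.2% against 8.86%, in 15 of the 40 genes. The interferon response element core, searched as GAAA, any 2 bases and GAAA, was present in 11.6% against 3.44%, in the 5 genes Psmb3, Psmd4, Psmd9, Psme1 and Psmg4. Some genes held 2 of the 3 motifs: Psmc6, Psmd12 and Psme4 the antioxidant and ETS letters, Psmd9 the antioxidant and interferon letters, and Psmd4 the ETS and interferon letters. The median log2 fold change of males at Day 3 against Day 0, used throughout below, was -0.66 in the 6 genes with TGACNNNGC and -0.72 in the 33 without it. It was -0.66 in the 15 genes with the ETS letters and -0.72 in the 24 without them. It was -1.08 in the 5 genes with the interferon core and -0.67 in the 34 others. These are matches of letters in a window, given as a description.

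Of the 48 genes, 46 had counts high enough to be tested in every comparison. The exceptions were Psma8, the α subunit of germ cells, with at most 1.47 counts per 1000000 (CPM) in any library, and Psmb11, the β subunit of the cortical thymic epithelium, with at most 0.281 CPM. The rule also took in Psmc3ip, a recombination factor that is no proteasome subunit, and Psme2b, a copy of the activator gene Psme2 whose reads may be divided between the copies. Exons of 13 of the 48 genes overlap exons of another gene, most of all Psmd9 with Gm26745 on the opposite strand (25.5% of its exonic bases), Psmc3ip with Mlx (21.2%), Psmb5 with Mir686 (12.1%), Psmb7 with Nek6 (11.8%) and Psmd13 with Sirt3 (10.1%). Whether the counting used strand is not given in the sources used here, so reads of such pairs cannot be told apart. Total counts per library ran from 16502107 to 35961325.

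Several libraries stood apart and bear on the results. At Day 5 the share of mitochondrial transcripts was 42.5% to 79.8% in males and 9.30% to 77.9% in females, against at most 24% in any Day 0 library. Male Day 5 mouse 1, so named by its label alone, had 4153 counts of the female transcript Xist and 387 counts of Y-linked genes. Y-linked counts also numbered 5 to 221 in the Day 0 females and 0 in all treated females. Among the other males, Xist had 242 counts in Day 0 mouse 4, 260, 89 and 59 counts in Day 5 mice 2, 3 and 4, and 0 to 50 counts in the rest. Female Day 0 mouse 2 held 9400 CPM of 4 hepatocyte genes, where the other female Day 0 libraries held 49.2 to 332 CPM. Among the 7 proximal tubule genes the summed level was 9024 to 12080 CPM in Day 0 males and 713 to 5617 CPM in Day 5 males. In bulk tissue such as this, fewer cells of a type and less RNA per cell cannot be told apart.

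Compared per length, as CPM per kilobase of gene, the highest proteasome gene at Day 0 was Psmb5, the chymotrypsin-like catalytic subunit, with 210 ± 84.3 (SD, n = 4) in males and 183 ± 67.5 in females. Psmb4, a structural β subunit, followed with 132 ± 63 in males, Psma6 of the α ring with 117 ± 77.6 and Psmb6, the caspase-like catalytic subunit, with 95 ± 37.7. Each of these 3 steps was smaller than the larger SD of the pair. At male Day 3 the same 3 genes led, with Psmb5 at 98.6 ± 4.38, Psmb4 at 62.6 ± 3.25 and Psma6 at 53.9 ± 2.24 CPM per kilobase, and there both steps were larger than the SDs. The lowest of the tested genes in both groups was Psmc3ip, with 2.54 and 1.06 CPM per kilobase, followed by Psmg3, a chaperone of core assembly, with 3.80 and 1.39.

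The summed level of the 48 genes was lower after cisplatin. In Day 0 males it was 4067, 4074, 5978 and 3298 CPM in mice 1 to 4, and in Day 0 females 4263, 5306, 5671 and 2647 CPM. After cisplatin the 24 libraries lay between 2566 and 3943 CPM, with a mean of 2835 ± 51.8 (SD, n = 4) in males at Day 3 and 2942 ± 211 in females at Day 3. All libraries of treated males lay below all Day 0 males, while female Day 0 mouse 4 lay below all treated females but Day 5 mouse 2. The Day 0 groups were also the most variable: the median coefficient of variation over the 46 genes was 28.6% in Day 0 males and 30.8% in Day 0 females, against 4.45% and 9.62% at Day 3. Male Day 0 mouse 3 had the highest value of its group for 36 of 46 genes and male Day 0 mouse 4 the lowest for 36, and female Day 0 mouse 4 had the lowest for 40.

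**Figure D1:**
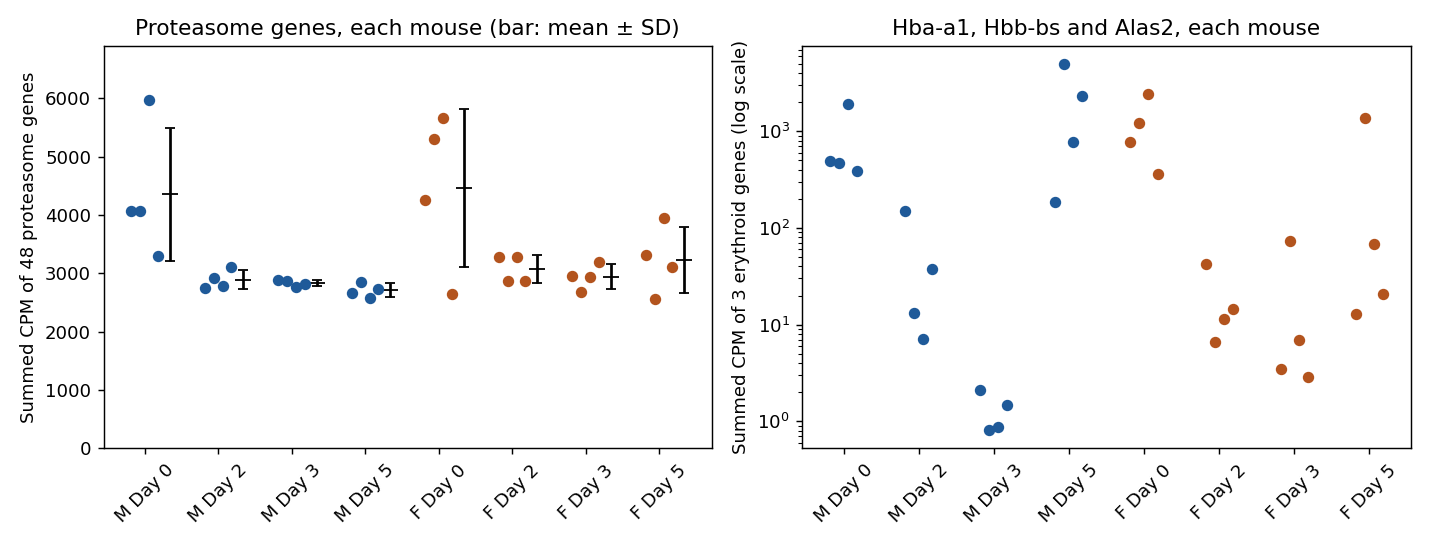
Summed CPM of the 48 proteasome genes (left) and of the erythroid genes Hba-a1, Hbb-bs and Alas2 (right, log axis) in each of the 32 libraries. M and F stand for males and females, each point is 1 mouse, and bars on the left are the mean and SD of 4 mice. The 8 Day 0 libraries spread from 2647 to 5978 CPM on the left, and those with the most proteasome transcripts also have the most erythroid transcripts.

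Erythroid transcripts moved with this level over the Day 0 libraries. The 3 erythroid genes Hba-a1, Hbb-bs and Alas2 summed to 1932 CPM in male Day 0 mouse 3 and 2402 CPM in female Day 0 mouse 3, the highest proteasome libraries of their groups, and to 391 and 365 CPM in male and female Day 0 mouse 4, the lowest. Over the 8 Day 0 libraries Spearman's rho between both sums was 0.952, and over the 24 treated libraries it was -0.343, given as a description of libraries whose totals share a depth and a normalization. The erythroid sum fell to between 0.811 and 2.13 CPM in males at Day 3 and between 2.85 and 72.7 CPM in females at Day 3, and all 3 genes passed the test as lower in both. In Day 2 females it was 6.54 to 41.9 CPM, against 365 to 2402 CPM at Day 0, and all 3 genes were lower as well, while in Day 2 males it was 7.07 to 149 CPM and 0 of the 3 were called. In males at Day 5 it was 185 to 4940 CPM, up to above the Day 0 range of 391 to 1932 CPM, while the summed proteasome level there was 2586 to 2861 CPM. Adipocyte genes moved too: the sum of 3 of them was 271, 277, 465 and 1457 CPM in Day 0 males and 144 to 194 CPM in Day 3 males, where 2 of the 3 were called lower (median log2 fold change -1.76). Over the 8 Day 0 libraries Spearman's rho between the adipocyte and the proteasome sum was -0.119. Between the mitochondrial share and the proteasome sum it was -0.738 there and -0.485 over the 24 treated libraries. Of the other cell type markers in Day 3 males, 2 of 7 proximal tubule genes (median log2 fold change 0.41) and 1 of 2 podocyte genes were higher, and 2 of 11 leukocyte and 1 of 4 hepatocyte genes were lower. At Day 2, 1 of 4 hepatocyte genes was lower in males and 1 of 10 leukocyte genes in females, and at Day 3, 2 of 11 leukocyte genes were lower in females. The part of these cell types and of mitochondrial share in the Day 2 and Day 3 results was not tested.

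Male mice at Day 3 showed the clearest change, a fall across most parts of the particle. Of the 46 genes, 27 were lower and 1 was higher than at Day 0 at a Benjamini-Hochberg adjusted p under 0.05 over all genes in edgeR's quasi-likelihood test, beside 13.1% of all 15908 genes tested called lower and 11.4% called higher (24.5% in all). The median log2 fold change of the 46 genes was -0.66, against 0.02 over all genes. The 4 mice of each group did not overlap for 29 genes that were lower and 2 that were higher, where such separation was seen in 17.4% and 20.9% of all genes. None of the 46 passed the study's threshold for differentially expressed genes, read here as adding an absolute log2 fold change over 1.5 to the edgeR call. The study used DESeq2 and did not state the base of its log fold change. This threshold was passed by 3.72% of all genes. The count rested on which libraries entered: leaving out Day 0 mice 1 to 4 in turn gave 15, 11, 34 and 38 calls and leaving out Day 3 mice 1 to 4 gave 4, 3, 1 and 3, while the median stayed between -0.79 and -0.47. Shares of all genes called with these mice left out are not given here.

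By role, the fall in Day 3 males took in 5 of 7 genes of the α ring (median log2 fold change -0.72), 6 of 7 of the β ring (-1.02), 4 of 6 base ATPases (-0.53), 7 of 8 lid genes (-0.68) and 2 of 4 chaperones of core assembly (-0.99). Of the 3 base genes without ATPase activity 1 was lower, of the 3 chaperones of base assembly 0 passed the test, and of the 4 activator genes 1 was lower and 1 higher. The single tested inducible β gene, Psmb10, was lower, and the inhibitor gene Psmf1 had a log2 fold change of 0.00. The 18 genes that did not pass the test ranged from -1.47 (Psmg3) to 0.41 (Psmd1).

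**Figure D2:**
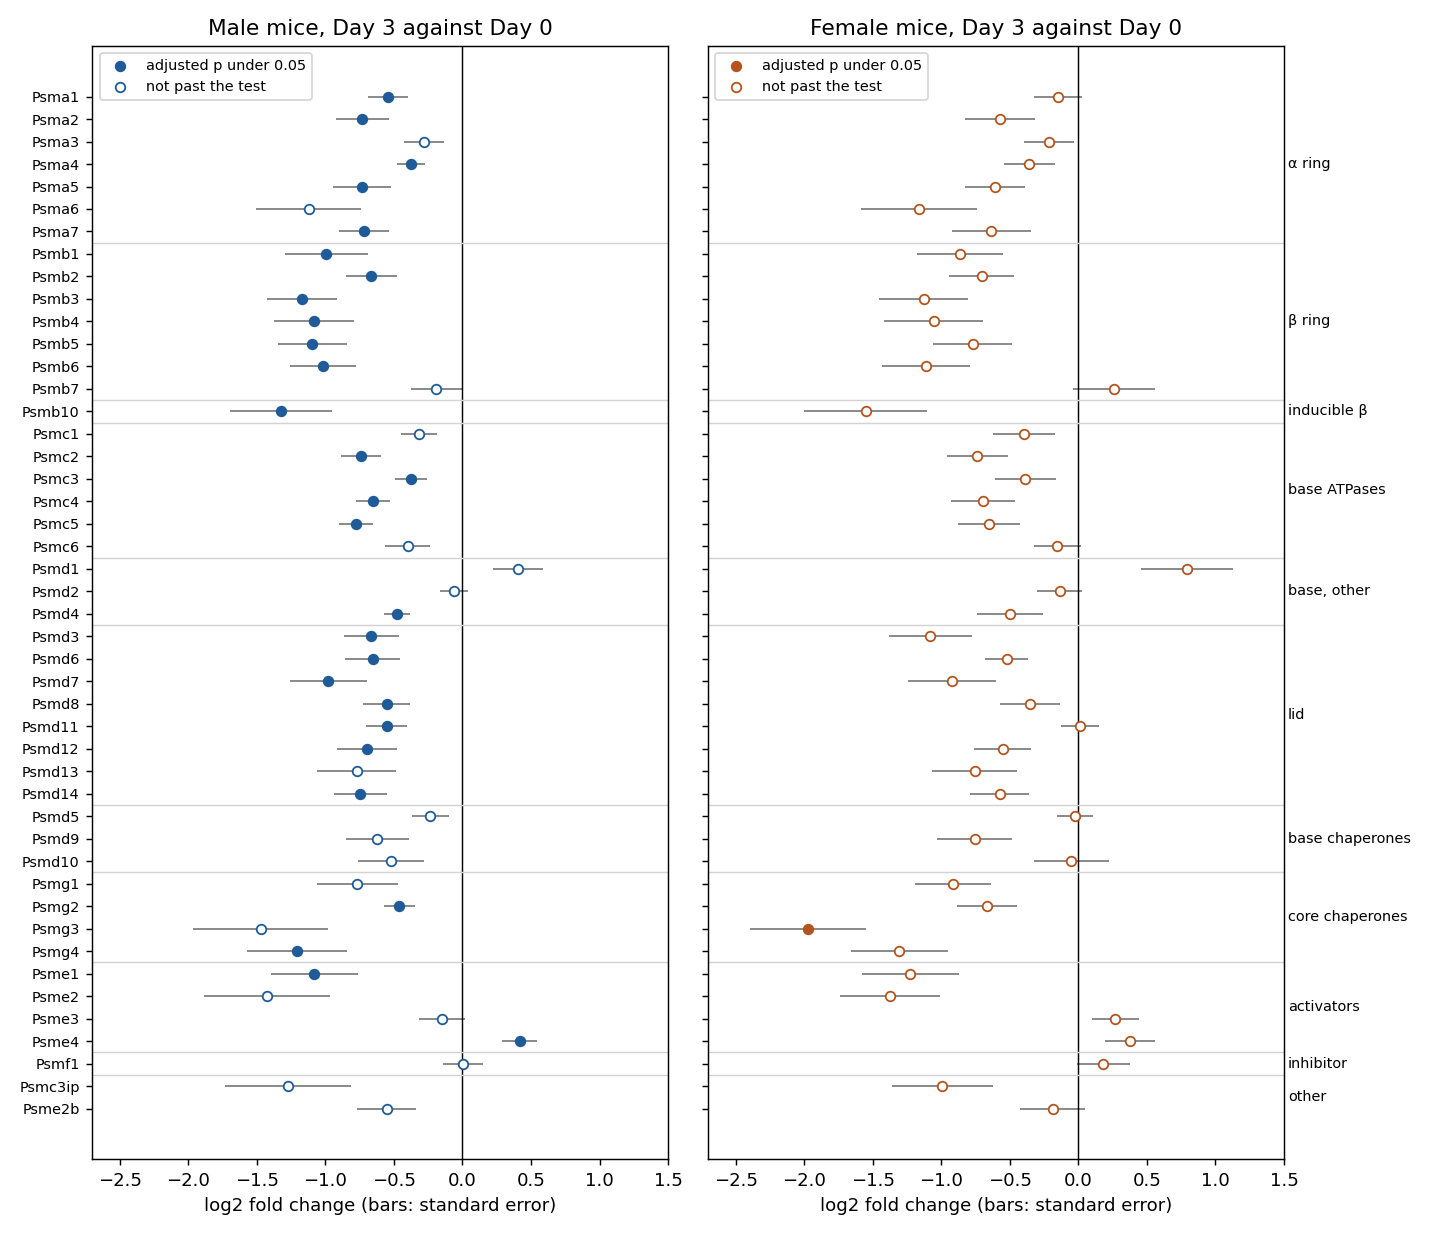
Log2 fold change at Day 3 against Day 0 of the 46 tested genes, ordered by role, in males (left) and females (right). Bars are standard errors, and filled points, unlike open ones, had an edgeR adjusted p below 0.05. Filled points number 28 in males and 1 in females, although most female points also lie left of 0.

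Psmb5 encodes the subunit that proteasome inhibitors used as drugs block. Its level was 154, 172, 300 and 130 CPM in Day 0 males and 94.6, 86.8, 86.7 and 86.6 CPM in Day 3 males. All 4 Day 3 males lay below the lowest Day 0 male. The log2 fold change was -1.10 ± 0.25 (SE), with an edgeR adjusted p of 0.0202. Psmb6, which lies at chr11:70525367-70527858 next to the promoter window printed above, went from 142, 152, 283 and 134 CPM to 87.5, 89.2, 86.3 and 89.5 CPM. Its groups did not overlap either, and its log2 fold change was -1.02 ± 0.24 (edgeR adjusted p = 0.0231). The third catalytic subunit, the trypsin-like Psmb7, was at 85.6, 85.9, 47.7 and 57.4 CPM at Day 0 and 58.6, 61.7, 59.8 and 61.8 CPM at Day 3. These values overlapped and the log2 fold change was -0.19 ± 0.19 (edgeR adjusted p = 0.466).

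Psmb10 is the inducible β subunit that replaces Psmb7 in the immunoproteasome, and Psme1 and Psme2 encode the subunits of the PA28αβ activator, all of them raised by interferon γ in many cells. Psmb10 was at 21.4, 24.2, 65.7 and 23.9 CPM in Day 0 males and at 15.4, 13, 14.4 and 11.6 CPM at Day 3. Every Day 3 value was below every Day 0 value, and the log2 fold change was -1.32 ± 0.37 (edgeR adjusted p = 0.0349). Psme1 went from 65.6, 67.5, 173 and 74.7 CPM to 43.9, 43.2, 48.1 and 45.8 CPM, a log2 fold change of -1.08 ± 0.32 (edgeR adjusted p = 0.04) with no overlap. Psme2 was at 22.6, 34, 95.8 and 26.9 CPM at Day 0 and at 22.2, 17, 12.5 and 15.7 CPM at Day 3. Its log2 fold change of -1.43 ± 0.46 missed the threshold (edgeR adjusted p = 0.0519). In all 3 genes male Day 0 mouse 3 was the highest library of the group by far. Of 8 other interferon-induced genes, 2 were lower and 0 higher in the same comparison, with a median log2 fold change of -0.07.

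Further genes with large falls were Psmg4, a chaperone that helps to build the α ring, and Psmb3, a structural β subunit. Psmg4 went from 13.1, 14.3, 40.6 and 17.3 CPM to 11.1, 9.38, 8.55 and 8.24 CPM, a log2 fold change of -1.21 ± 0.36 (edgeR adjusted p = 0.043). Psmb3 went from 129, 127, 263 and 124 CPM to 73.8, 72.2, 67.8 and 72.6 CPM, a log2 fold change of -1.17 ± 0.26 (edgeR adjusted p = 0.0182). In Psmb3 the lowest Day 0 male was still far above the highest Day 3 male. Psmd4, the ubiquitin receptor of the base, had the tightest Day 0 values of these genes, 110, 110, 111 and 108 CPM, and fell to 84, 75.4, 80.5 and 74.3 CPM. Its log2 fold change was -0.48 ± 0.10 (edgeR adjusted p = 0.0133), and male Day 0 mouse 3 did not stand out in it. Psmd14, the deubiquitinase of the lid, went from 52.9, 53.7, 70.1 and 35 CPM to 33.5, 32.4, 28.1 and 32.6 CPM, with a log2 fold change of -0.75 ± 0.20 (edgeR adjusted p = 0.0294).

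Some genes did not share the fall. Psme4 encodes PA200, an activator that caps the core particle in place of the regulatory particle and acts in the nucleus. It was at 128, 131, 92.9 and 105 CPM in Day 0 males and at 149, 155, 149 and 155 CPM in Day 3 males. It was the 1 gene of the 46 called higher, with no overlap between groups and a log2 fold change of 0.42 ± 0.13 (edgeR adjusted p = 0.0457). The call held only without Day 0 mouse 3 when mice were left out in turn. Psmd1, a large scaffold subunit of the base, was at 61.2, 54.8, 33.6 and 61.6 CPM and then at 64, 74.6, 67.7 and 73.2 CPM, without overlap but short of the threshold (log2 fold change 0.41 ± 0.18, edgeR adjusted p = 0.133). The other scaffold, Psmd2, had a log2 fold change of -0.06 ± 0.10, and Psme3, which encodes the nuclear activator PA28γ, one of -0.15 ± 0.17. Psmf1, the inhibitor PI31, was at 29.3, 27.6, 18.7 and 27.5 CPM at Day 0 and at 26.7, 24.7, 25.3 and 26.6 CPM at Day 3.

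**Figure D3:**
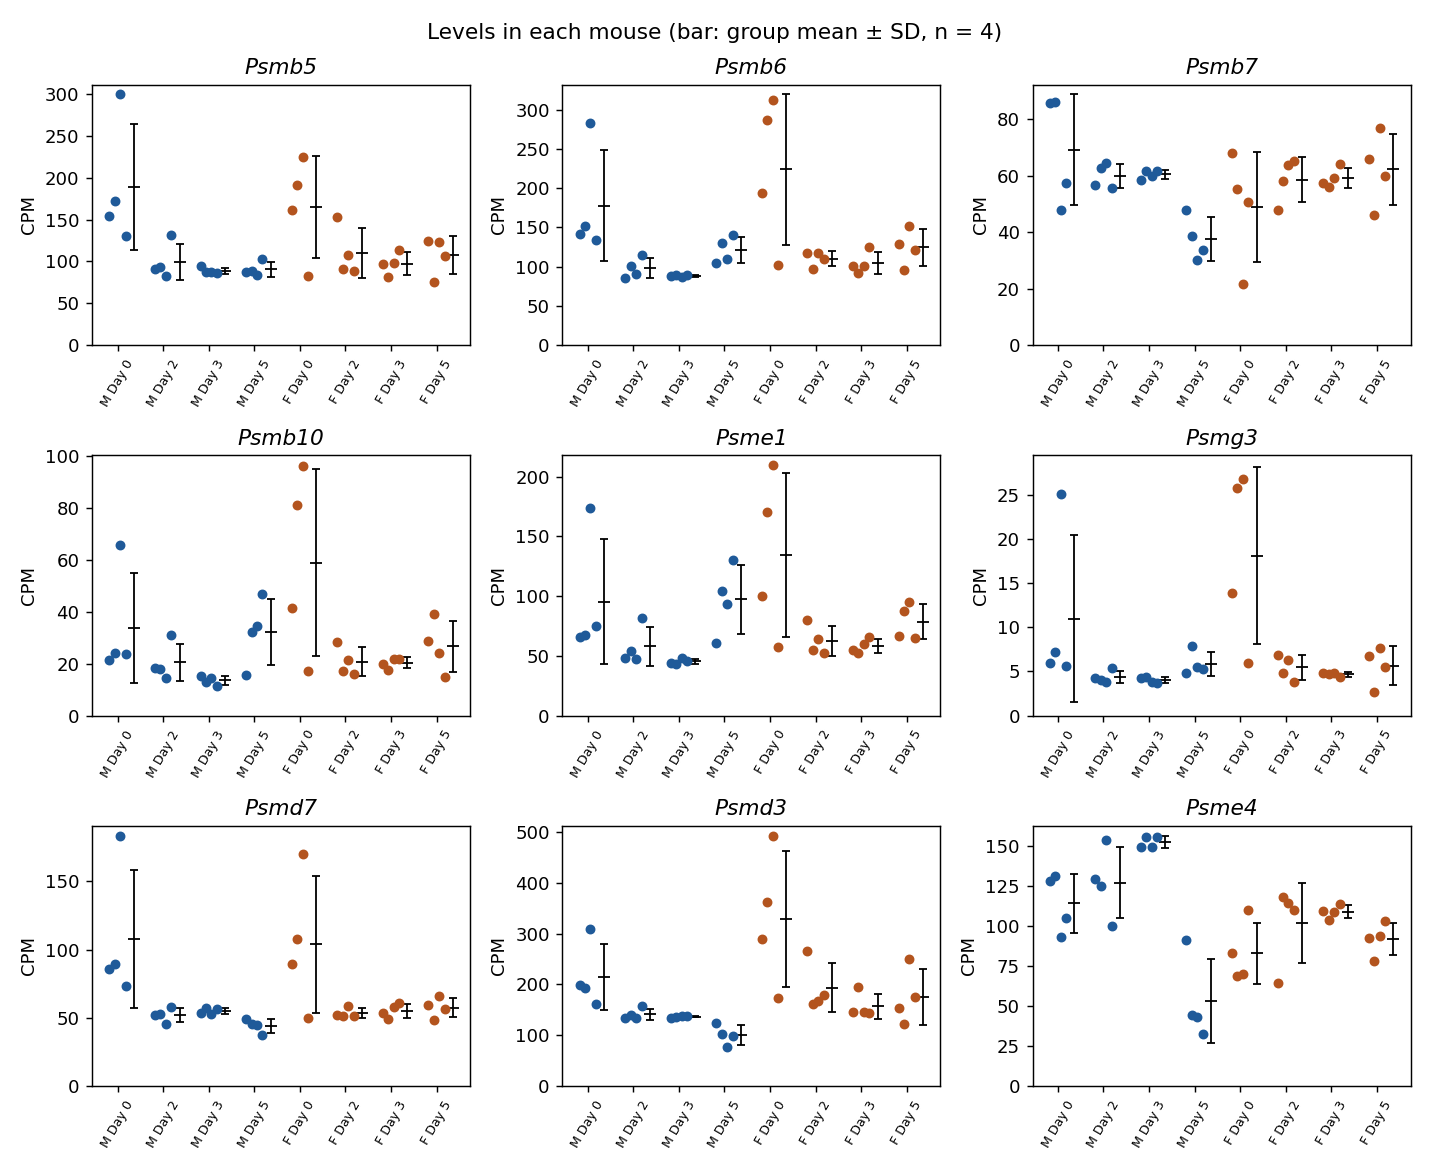
Level in CPM of 9 proteasome genes in each mouse of the 8 groups (M males, F females), with the mean and SD of 4 mice as bars. Psmb5 and Psmb6 lie lower at Days 2 to 5 than in most Day 0 mice, Psmb10 and Psme1 are back near the Day 0 level in Day 5 males, and Psme4 is highest in Day 3 males and lowest in Day 5 males.

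Gene length went with these differences. Among all protein-coding genes tested in Day 3 males, the median log2 fold change was -0.81 for genes under 1500 bases and 0.34 for genes over 6000 bases, with medians of -0.39, -0.13 and 0.10 in the classes between. The proteasome genes are mostly short to medium in length. Their medians in the same 5 classes were -0.75 (10 genes), -1.08 (11), -0.55 (15), -0.70 (4) and -0.12 (6), and 35 of the 46 lay below the median of their class. Psme4 and Psmd1, with 8382 and 7265 bases, are among the longest of the 46 and lie in the class with a median of 0.34. When a trend of level on length was taken out of each library, an alternative chosen after the data were seen, the median of the 46 genes was -0.48, and 6 genes were called lower (Psmb3, Psmb5, Psmc2, Psmc4, Psmd4 and Psmd11). Psme4, at 0.08, no longer passed the test, and Psmg2 turned from -0.46 to 0.05.

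**Figure D4:**
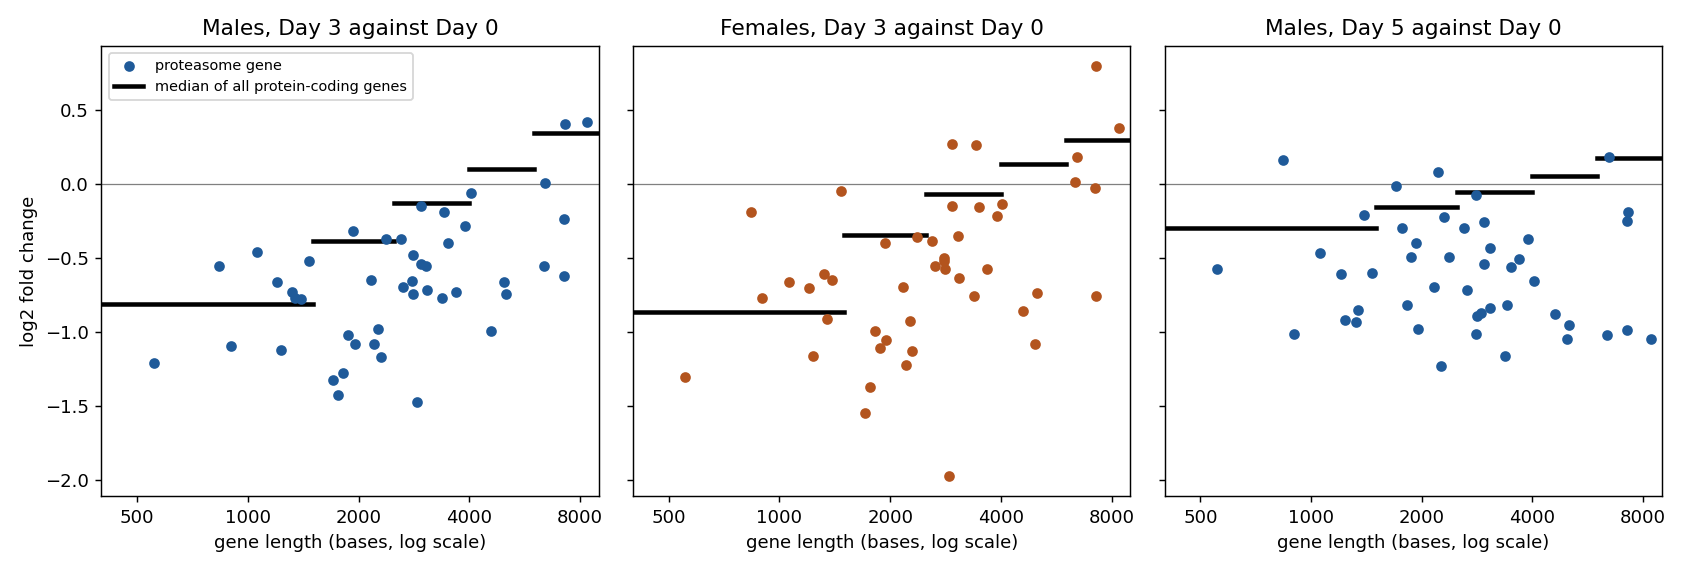
Log2 fold change of each proteasome gene (points) against gene length in bases (log axis) at Day 3 in males, Day 3 in females and Day 5 in males, each against Day 0 of the same sex. Black lines are medians of all protein-coding genes in 5 length classes. At Day 3 the lines climb from -0.81 to 0.34 in males and from -0.87 to 0.30 in females, and most points lie below the line of their class.

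At Day 2 in males the values lay where they lay at Day 3, with fewer calls. The median log2 fold change of the 46 genes was -0.64, against 0.03 over all genes, and 2 were called lower, the base ATPase genes Psmc2 and Psmc5, beside 1.35% of all genes called lower and 1.81% higher (3.16% in all). None passed the study's threshold, which 0.716% of all genes did. Psmc2 was at 112, 118, 145 and 91.7 CPM in Day 0 males and at 68, 69.8, 65 and 69.6 CPM in Day 2 males, with a log2 fold change of -0.77 ± 0.16 (edgeR adjusted p = 0.0446). Psmc5 went from 111, 111, 138 and 107 CPM to 66.2, 74.7, 67.6 and 80.6 CPM, with a log2 fold change of -0.68 ± 0.14 (edgeR adjusted p = 0.0446). Neither gene overlapped between the groups. The groups did not overlap for 21 genes, all lower, where 12% of all genes were separated in that direction. The count of 2 became 16 when Day 0 mouse 3 was left out, 21 when Day 0 mouse 4 was, and 0 with any other library left out. It was 21 with the DESeq2 Wald test, and the shares of all genes called in these refits are not given here. In the length classes, 41 of the 46 lay below the median of their class, and with the length trend taken out the median was -0.48 and 0 genes were called.

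At Day 5 in males fewer genes were called than at Day 3. Of the 46 genes, 15 were lower and 0 higher, beside 10.2% of all 14969 genes tested called lower and 8.98% higher (19.2% in all), and the median log2 fold change was -0.61. None passed the study's threshold, which 7.53% of all genes did. The lid held 7 of these 15 genes out of its 8 (median -1.02), the α ring 1 of 7 (-0.51), the β ring 2 of 7 (-0.82) and the base ATPases 2 of 6 (-0.48). All genes of these 4 roles had negative log2 fold changes, and the difference between roles was not tested. The groups did not overlap for 20 genes, all lower, beside 16.1% of all genes. The Day 0 males are shared with the Day 3 comparison, and the difference between Day 3 and Day 5 was not tested. Without the library labelled male Day 5 mouse 1 the count was 16 and the median -0.61. It was 2, 1, 14 and 22 without male Day 0 mouse 1, 2, 3 or 4, and 1 without male Day 5 mouse 2, 3 or 4. Length was less of a companion here: the class medians ran from -0.30 to 0.17 and 41 of the 46 genes lay below theirs. With the length trend taken out 14 genes were lower, all of them among the 15, and the median was -0.51.

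Psmd7, a lid subunit that pairs with the deubiquitinase Psmd14, was at 85.4, 89.3, 183 and 72.9 CPM in Day 0 males and at 49.2, 45.8, 45 and 37.2 CPM in Day 5 males. Its log2 fold change was -1.23 ± 0.31 (edgeR adjusted p = 0.0251), with no overlap. Psmd13, a further lid subunit, went from 102, 110, 201 and 71.1 CPM to 61.7, 52.9, 48.7 and 45.8 CPM, a log2 fold change of -1.16 ± 0.31 (edgeR adjusted p = 0.0323). Psmd3, also of the lid, went from 198, 193, 310 and 161 CPM to 125, 102, 76.6 and 99 CPM, a log2 fold change of -1.05 ± 0.27 (edgeR adjusted p = 0.0276). In these 3 lid genes all 4 Day 5 males lay below all Day 0 males. Psmd14 was at 27.2, 26.4, 25.5 and 30.5 CPM at Day 5 and was lower as well (-0.89 ± 0.23, edgeR adjusted p = 0.0261).

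Of the 15 genes, 5 had not been called lower at Day 3: Psmd13, Psmd9, Psmb7, Psmd2 and Psme4. Psme4 was at 91.3 CPM in the library labelled mouse 1 and at 44.6, 43.2 and 32.4 CPM in mice 2 to 4, all below the Day 0 range of 92.9 to 131 CPM. Its log2 fold change was -1.05 ± 0.31 (edgeR adjusted p = 0.0413). Psmb7 was at 48, 38.8, 30 and 33.6 CPM (log2 fold change -0.82 ± 0.24, edgeR adjusted p = 0.0409), and Psmd2 at 115, 89.4, 94.8 and 93.4 CPM (-0.66 ± 0.18, edgeR adjusted p = 0.0345). Other genes that were lower at Day 3 had values near those of Day 0. Psmb10 was at 15.6, 32.4, 34.5 and 46.8 CPM, a log2 fold change of -0.02 ± 0.44, and Psme1 at 60.9, 104, 93.3 and 130 CPM, one of 0.08 ± 0.38. Psmd4 at 80.8, 106, 89.3 and 122 CPM (-0.07 ± 0.19) and Psmb3 at 90.1, 162, 102 and 174 CPM (-0.23 ± 0.34) overlapped Day 0 likewise. In each of these 4 genes the library labelled mouse 1 was the lowest and mouse 4 the highest. Leukocyte genes summed to 91.6 to 398 CPM in Day 5 males against 117 to 190 CPM at Day 0, and of 12 tested 2 were higher and 1 lower. Of the 8 other interferon-induced genes 2 were higher and 1 lower at Day 5, with a median log2 fold change of 0.55. The adipocyte sum was 523 to 2974 CPM in Day 5 males, and of 3 adrenal cortex genes 2 were higher there (median log2 fold change 3.06). Of 2 collecting duct genes 1 was higher, and of 7 proximal tubule genes 2 and of 4 hepatocyte genes 1 were lower. The part of these cell types and of mitochondrial share in the Day 5 values was not tested.

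In female mice the values moved the same way, and few passed the test. The median log2 fold change of the 46 genes was -0.58 at Day 2, -0.62 at Day 3 and -0.45 at Day 5, against 0.03 over all genes each time. At Day 3 1 gene was called, lower, beside 4.28% of all 17065 genes called lower and 1.26% higher (5.54% in all). At Day 2 and Day 5 0 genes were called by edgeR, beside 1.93% and 0.258% of all genes called in either direction (0.774% and 0.185% higher, 1.16% and 0.0738% lower). The study's threshold was passed by 1.41%, 2.48% and 0.228% of all genes at Days 2, 3 and 5, and by 0, 1 and 0 of the 46. At an unadjusted p under 0.05 there were 21, 28 and 10 genes at Days 2, 3 and 5, where all genes gave 25.3%, 30.7% and 15.7%. The DESeq2 Wald test called 6, 13 and 2 genes, and limma voom with sample weights 32, 36 and 17. Shares of all genes called by these other tests are not given here. The groups did not overlap for 0, 2 and 0 genes that were lower, beside 6.64%, 9.16% and 3.63% of all genes, and for 0 that were higher, beside 8.66%, 10.1% and 4.97%.

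When mice were left out in turn, the female edgeR counts rose only when 1 particular library was left out. Without female Day 0 mouse 4, the lowest Day 0 library for 40 of the 46 genes, 28 genes were called at Day 2, 36 at Day 3 and 15 at Day 5, of which 1, 2 and 0 were higher. The shares of all genes called without this library are not given here, so the rise may not be particular to the proteasome genes. This library also had the highest mitochondrial share (19.7%) and the lowest erythroid level (365 CPM) of the Day 0 females. Without any other library the counts were 0 at every day. Without female Day 0 mouse 2, which held the hepatocyte transcripts, the medians were -0.46, -0.50 and -0.36, and without female Day 5 mouse 2, whose mitochondrial share was 77.9%, the Day 5 median was -0.36. With the length trend taken out, the medians were -0.34, -0.40 and -0.30, and 0 genes were called at any day.

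The gene called in females was Psmg3, a chaperone that works with Psmg4 in building the α ring, at chr5:139823592-139826885. It was at 14, 25.8, 26.9 and 5.94 CPM in Day 0 females and at 4.81, 4.67, 4.86 and 4.33 CPM at Day 3. The Day 3 values lay within a narrow range below the lowest Day 0 female, and the log2 fold change was -1.97 ± 0.42 (edgeR adjusted p = 0.0467), past the study's threshold as well. Psmg3 shares 9.7% of its exonic bases with Gm26938 on the same strand. The call was lost with 7 of the 8 libraries left out in turn. At Day 5 Psmg3 was at 6.80, 2.65, 7.65 and 5.53 CPM, with a log2 fold change of -1.67 ± 0.47 that missed the threshold (edgeR adjusted p = 0.177).

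Among the catalytic subunits of females, Psmb6 was at 194, 288, 312 and 102 CPM at Day 0 and at 101, 92.1, 101 and 125 CPM at Day 3. Only female Day 0 mouse 4 lay within the Day 3 range, and the log2 fold change was -1.11 ± 0.32 (edgeR adjusted p = 0.0641). Psmb5 was at 162, 191, 224 and 82.3 CPM at Day 0 and at 96.9, 81.5, 97.5 and 114 CPM at Day 3, a log2 fold change of -0.77 ± 0.29 (edgeR adjusted p = 0.111). Psmb7 was at 68, 55.1, 21.6 and 50.6 CPM and then at 57.5, 56, 59.2 and 64.2 CPM, a log2 fold change of 0.26 ± 0.30. Psmb10 (-1.55 ± 0.45, edgeR adjusted p = 0.0635), Psme1 (-1.23 ± 0.35, 0.0634) and Psme2 (-1.38 ± 0.36, 0.053) had the size of change seen in males and missed the threshold. Psme4 was at 83.3, 68.5, 69.9 and 110 CPM at Day 0 and at 109, 104, 108 and 114 CPM at Day 3, with a log2 fold change of 0.38 ± 0.18 (edgeR adjusted p = 0.188), female Day 0 mouse 4 being the exception within the range of Day 3.

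The gene-by-gene pattern was alike in both sexes at Days 2 and 3. Male and female log2 fold changes, which share no mice, had a Pearson correlation over the 46 genes of 0.866 at Day 2 and 0.923 at Day 3, with the same sign in 42 and 43 genes. At Day 5 it was 0.268, with the same sign in 40. The genes share libraries and lengths, so these are descriptions. A test of the difference between the sexes in the response (an interaction term in edgeR) called 0 of the 46 genes at Day 2, Day 3 and Day 5, and 0, 2 and 41 genes among all genes (0%, 0.0114% and 0.243%). At an unadjusted p under 0.05 there were 1, 1 and 3 of the 46. DESeq2 called 0, 0 and 1, and limma voom with weights 4, 5 and 13. The largest differences at Day 5 among the genes described above were in Psme4, -1.21 ± 0.38 (edgeR adjusted p = 0.149), and Psmb7, -1.19 ± 0.42 (edgeR adjusted p = 0.198), both in the direction of a lower response in males.

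Compared directly at the same day, males and females differed little. At Day 0 the median log2 difference (male minus female) was 0.03 and 0 genes were called by edgeR, beside 0.449% of all genes, with 1 at an unadjusted p under 0.05 (8.04% of all genes), 0 with DESeq2 and 12 with limma voom. The sexes did not overlap at Day 0 for 0 of the 46, beside 3.43% of all genes higher and 2.74% lower in males. Males were higher without overlap for 1, 3 and 0 genes at Days 2, 3 and 5, beside 5.27%, 14.8% and 4.13% of all genes. They were lower without overlap for 2, 7 and 2 genes, beside 3.68%, 10.8% and 4.72%. At Day 2 and Day 5 there were also 0 calls, beside 1.47% and 0.276% of all genes, with 2 and 7 at an unadjusted p under 0.05, 0 and 1 with DESeq2, and 4 and 10 with limma voom. At Day 3, 1 gene was higher and 4 were lower in males, beside 10.6% and 10.7% of all genes. Psme4 was at 149 to 155 CPM in Day 3 males and 104 to 114 CPM in Day 3 females, without overlap (log2 difference 0.46 ± 0.06, edgeR adjusted p = 0.00156). Psmb10 was at 11.6 to 15.4 CPM in males and at 20.1, 17.5, 22 and 21.8 CPM in females (-0.61 ± 0.11, edgeR adjusted p = 0.00511). Psme1 differed by -0.39 ± 0.08 (edgeR adjusted p = 0.00995) and Psme2 by -0.68 ± 0.19 (edgeR adjusted p = 0.034). The fourth gene was the base ATPase gene Psmc3, at 116, 119, 112 and 111 CPM in males and 134, 120, 129 and 141 CPM in females (-0.23 ± 0.07, edgeR adjusted p = 0.0446). The count of 5 was 0 in a single fit over all 8 groups and 16 without female Day 3 mouse 2. Leaving out any other mouse gave 3 or 4. Markers of cell types also differed between the sexes at Day 3: 4 of 7 proximal tubule genes were higher in males, while 2 of 2 collecting duct, 1 of 2 thick ascending limb, 2 of 3 adipocyte and 1 of 8 interferon-induced genes were lower. Of 4 hepatocyte genes 1 was higher and 2 were lower, and of 11 leukocyte genes 1 was higher. Their part in the difference was not tested.

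Of 14 genes that regulate or accompany the proteasome, 13 were tested. In Day 3 males 3 were higher and 3 lower, where 11.4% of all genes were called higher and 13.1% lower. Higher were Nfe2l2, which encodes the antioxidant regulator NRF2, at 65.6, 71.1, 53.3 and 53 CPM and then 104, 83.5, 96.5 and 74.6 CPM (log2 fold change 0.56 ± 0.15, edgeR adjusted p = 0.0293), Ddi2, the protease that activates NRF1 (0.54 ± 0.09, edgeR adjusted p = 0.00947), and the proteasome adaptor gene Ecpas (0.42 ± 0.09, edgeR adjusted p = 0.0169). Lower were Pomp, the maturation factor of the core particle, at 91.4, 97.8, 156 and 67.7 CPM and then 53.9, 53.5, 54.6 and 56.4 CPM (-0.92 ± 0.23, edgeR adjusted p = 0.0262), the ubiquitin receptor gene Adrm1 (-0.79 ± 0.16, edgeR adjusted p = 0.0142) and the small lid gene Sem1 (-1.43 ± 0.41, edgeR adjusted p = 0.0364). Nfe2l1 itself was at 157, 169, 169 and 216 CPM at Day 0 and at 204, 198, 204 and 201 CPM at Day 3, a log2 fold change of 0.18 ± 0.13 (edgeR adjusted p = 0.324). At Day 3 it was lower in males than in females, which had 234, 263, 269 and 228 CPM (log2 difference -0.33 ± 0.08, edgeR adjusted p = 0.0169). Sem1 was lower in males at Day 3 too, and Ecpas and Ngly1 were higher, 2 of 13 genes in each direction beside 10.6% of all genes higher and 10.7% lower. In Day 5 males Adrm1 was the 1 gene of the 13 called, lower by edgeR (-0.77 ± 0.23, adjusted p = 0.0424), beside 10.2% of all genes lower and 8.98% higher. In females Nfe2l2 was higher at Day 2 (0.93 ± 0.21, edgeR adjusted p = 0.0499) and Day 3 (1.05 ± 0.22, edgeR adjusted p = 0.0465), and Sem1 was lower at Day 3 (-1.59 ± 0.39, edgeR adjusted p = 0.0495). The deubiquitinase genes Uchl5 and Usp14 did not pass the test in any comparison with Day 0, with log2 fold changes of -0.53 ± 0.23 and -0.03 ± 0.12 in Day 3 males.

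Further genes of ubiquitin and substrate delivery were tested beside the subunit genes. Ubb, which encodes a chain of ubiquitin units, was at 918, 934, 1233 and 673 CPM in Day 0 males and at 476, 509, 461 and 470 CPM in Day 3 males, without overlap (log2 fold change -0.97 ± 0.19, edgeR adjusted p = 0.0131). Rps27a, which encodes ubiquitin fused to a ribosomal protein, was lower too (-1.91 ± 0.49, edgeR adjusted p = 0.0272). In Day 3 males 4 of the 15 genes of this list were lower and 0 higher, beside 13.1% and 11.4% of all genes. Ubb and Rps27a were among these 4. In Day 5 males 4 of the 15 genes of this list were lower and 0 higher, beside 10.2% and 8.98% of all genes: the segregase gene Vcp (-1.01 ± 0.21, edgeR adjusted p = 0.0152), its cofactor Nploc4 (-0.82 ± 0.15, edgeR adjusted p = 0.012), and the shuttle genes Ubqln1 (-0.68 ± 0.20, edgeR adjusted p = 0.0379) and Sqstm1 (-0.87 ± 0.27, edgeR adjusted p = 0.0488). Ubb and Rps27a had log2 fold changes of -0.86 ± 0.29 and -1.35 ± 0.43 there and missed the threshold (edgeR adjusted p = 0.0615 and 0.0553). In females 0 genes of the list were called by edgeR at Day 2 or Day 5, beside 1.93% and 0.258% of all genes. At Day 3 in females 1 of the 15 was lower and 0 higher, beside 4.28% and 1.26% of all genes.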

How the data were processed

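Kidney RNA of 32 mice was sequenced by the authors (150 bp paired-end reads). The authors deposited raw counts per gene, made per the labels with HTSeq, and FPKM values, which were used here only as a check. The methods name GRCm38 and the labels GRCm39 and mm39; 53499 of 54409 shared genes have the start and end of GENCODE M21 (GRCm38), which was used for positions. The aligner and strandedness are not given in the sources used here.

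Counts were tested with edgeR 4.0.16 (TMM, filterByExpr, robust quasi-likelihood F test) in R 4.3.3, each comparison on the groups it names, with Benjamini-Hochberg adjustment over all genes tested and a threshold of 0.05. Log2 fold changes are given ± their standard errors. CPM are counts divided by TMM effective library sizes over the 32 libraries. Alternatives used DESeq2 1.42.0, limma 3.58.1, other filters and fits, a lowess trend on gene length and each mouse left out. On simulated counts for males at Day 3, edgeR called 56 of 100 genes changed 2-fold, 100 of 100 changed 4-fold and 4 unchanged ones, of 15604 genes tested in all. The simulation capped the spread between mice, gave both groups the same spread and changed only genes with higher counts. In the data the median coefficient of variation of the 46 genes was 28.6% in Day 0 males and 4.45% in Day 3 males. The simulated rates may therefore not hold for the data. Counting error and spread between mice both enter the p-values.

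The genes, lists and roles were chosen with earlier results of these data known. Genes named are the called genes with the largest changes whose groups do not overlap (at most 3 a direction and comparison, with Day 0 or between the sexes), 10 genes chosen for their roles, genes that need care, and regulators. Psmd1, Psmd2, Psme3 and further partners were named after their values were seen. Some genes of the ubiquitin list are not reported here.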

Additional observations from a re-analysis of the deposited data

Results flagged for a closer look

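In 176 groups of 4 mice for the genes named, Dixon's criterion singled out 20 values as far from the other 3, where chance gives about 1 in 20. Of these, 11 belong to male Day 0 mouse 3, with Psmb10 at 65.7, Psmb3 at 263, Psmb6 at 283, Psmc3ip at 9.74, Psmc5 at 138, Psmd7 at 183, Psme1 at 173, Psme2 at 95.8, Psmg3 at 25.1 and Psmg4 at 40.6 CPM high and Psmf1 at 18.7 CPM low. This library also had the highest erythroid level of the Day 0 males (1932 CPM) and the lowest mitochondrial share (6.46%), whose part was not tested. Without it the median log2 fold change of the 46 genes was -0.41 at Day 2, -0.47 at Day 3 and -0.42 at Day 5, with 16, 34 and 14 genes called.

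The others were Psmd13 at 89.4 (high) and Psmd14 at 24.4 CPM (low) in male Day 2 mouse 4, Psmb5 at 94.6 CPM (high) in male Day 3 mouse 1, Psmd3 at 265 (high) and Psme4 at 64.4 CPM (low) in female Day 2 mouse 1, Psmd7 at 58.7 CPM (high) in female Day 2 mouse 3, Psmd3 at 194 CPM (high) in female Day 3 mouse 2, and Psmb3 at 140 and Psmc3ip at 4.12 CPM (high) in female Day 5 mouse 3.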

How the results depend on the processing

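In the 6 comparisons with Day 0 the medians of the 46 genes stayed negative under every alternative. The counts of calls did not. Shares of all genes called under the alternatives or with mice left out are not given here, so these counts describe only how stable the calls were. DESeq2's Wald test gave 21 in Day 2 males, 6, 13 and 2 in females at Days 2, 3 and 5, and 1 each for the sexes at Day 5 and for the interaction at Day 5. limma voom with sample weights gave 40 and 33 in males at Days 2 and 5, 32, 36 and 17 in females, 12, 4, 20 and 10 between the sexes at Days 0, 2, 3 and 5, and 4, 5 and 13 for the interactions. A single fit over all 8 groups gave 21 and 28 in males at Days 2 and 5, 24, 27 and 8 in females, 0 and 6 between the sexes at Days 3 and 5, and 3 for the interaction at Day 5. Without a filter on low counts there were 0 and 14 in males at Days 2 and 3 and 3 in females at each of Days 2 and 3, and with at least 10 counts in every library 3 and 4 in females. With the length trend taken out there were 0 and 6 in males at Days 2 and 3 and 0 in Day 3 females, and Psmg2 in Day 3 males turned from -0.46 to 0.045. The causes were not tested.

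The samples were not treated as paired by mouse number. Deviations of same-numbered mice correlated at -0.57 to 0.64, and in 0 comparisons did all pairs exceed 0.1. This rule cannot exclude a structure shared by some pairs. Between the sexes at Day 0, the deviations of mice 1 to 4 correlated at 0.395, -0.144, 0.643 and 0.576. A replicate block gave 0, 0 and 7 calls in males at Days 2, 3 and 5 and 0 in Day 3 females.

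Leaving out 1 mouse gave 0 to 21, 1 to 38 and 1 to 22 calls in males at Days 2, 3 and 5, 0 to 28, 0 to 36 and 0 to 15 in females, 3 to 16 and 0 to 3 between the sexes at Days 3 and 5, and 0 to 2 for the interaction at Day 5. The medians ran from -0.74 to -0.41, -0.79 to -0.47 and -0.72 to -0.42 in males, from -0.77 to -0.43, -0.80 to -0.50 and -0.62 to -0.31 in females, from -0.18 to 0.12, -0.15 to -0.04, -0.14 to -0.08 and -0.26 to -0.02 between the sexes at Days 0, 2, 3 and 5, and from -0.21 to 0.05, -0.22 to 0.10 and -0.38 to -0.09 for the interactions.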
